A study of Danio rerio with 8 samples.

Results

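The genes described here burn, build and store fatty acids in zebrafish embryos, or belong to the PPAR nuclear receptors that regulate those tasks. A list of 44 gene names was matched to the symbols of the count table, ignoring case and also accepting a human-style name without the zebrafish paralog suffix. The names found 44 rows, of which 42 had at least 10 counts summed over the 8 libraries, among 32020 rows in all. Of the 42 rows, 22 belong to oxidation, 4 to synthesis, 8 to uptake and storage and 8 to receptors with their partners. CD36, a fatty acid transporter, and DGAT2, an enzyme of triglyceride synthesis, had 0 counts in all 8 libraries. Zeros were more frequent in the table than counting gives, by values given with the zeros of the members, so no upper limit on the level of either gene is drawn. No row carried the name fabp11a. RefSeq's gene table for the assembly GRCz12tu gives fabp11a as a synonym of fabp4a, which is described with the further storage genes.

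RNA was sequenced from 4 control and 4 treated samples of zebrafish embryos. Treatment was exposure to 7,17-diHDPAn-3, an omega-3 metabolite made by adding hydroxyl groups to docosapentaenoic acid. The study's design text names the AB wild-type strain and the lines Tg(gata1: Dsred) and Tg(CD41:GFP), says that the compound was dissolved in ethanol, and describes a screen at 1.5 µM from 11 to 36 hours post fertilization besides a search for the best dose between 1 and 1.75 µM. All 8 library names carry the tag gata_1, which no label explains, and that of control 4 alone also carries 2b. The tag is set apart after ctr in the names of controls and joined to plus, as plusgata_1, in those of treated libraries. Beyond that tag, the sources used here do not say which strain, dose, vehicle and hours apply to these 8 libraries. Nor do they say whether each library is a clutch of its own, and the spread that p-values rest on may therefore be technical. Controls are numbered 1 to 4 and treated libraries 5 to 8. Counts per library ran from 2502636 to 4794081.

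The labels name the cells as red cell progenitors and erythrocytes of the embryo, but transcripts of other tissues were present in every library. The 15 rows of red cell markers took 0.330% to 0.813% of counts and the 30 rows of muscle markers 0.179% to 2.21%. The 13 epidermal rows took 0.653% to 1.26% and the 13 neural rows 0.201% to 0.235%. Of the listed names, 2 of 16 red cell, 2 of 25 muscle, 1 of 14 epidermal and 1 of 14 neural matched no row. The unmatched red cell names were hbbe1.1 and hbbe2, and the shares cover matched rows only. The 23 rows of yolk syncytial layer and liver markers took 0.00921% to 0.0468%, heart markers 0.00974% to 0.0453%, macrophage and neutrophil markers 0.00966% to 0.0167% and endothelial markers 0.0107% to 0.0275%. Of 8 rows of adipocyte markers, 4 were at 0 counts, namely both ADIPOQ rows, plin1 and CIDEC, which define fat cells and their droplets. The other 4 were fabp4a with 808 counts over the 8 libraries, PNPLA2 with 138, lepa with 39 and lipea with 7, and the list took 0.00221% to 0.00380% of counts in controls and 0.00346% to 0.00416% in treated libraries. In such samples a change in the number of cells of a type cannot be told apart from a change in RNA per cell.

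Fatty acids enter mitochondria as carnitine esters, are shortened by repeated rounds of beta-oxidation and pass their electrons to the respiratory chain through the electron transfer flavoprotein. PPARs are nuclear receptors that bind fatty acids and their derivatives, pair with an RXR receptor and, in mammals, switch on many genes of oxidation and storage. The yolk supplies lipid to the early embryo, and muscle and heart are large users of fatty acids.

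No member differed between treated and control libraries at an adjusted p of at most 0.05 in edgeR's quasi-likelihood test, the count being 0 of 40 tested members. Of all 14249 genes tested the share called was 0%. At an unadjusted p of at most 0.05 the count was 1 of 40, PLIN2, against 6.93% of all genes tested. The groups did not overlap in 1 of 40 members, again PLIN2, against 4.62% of all genes, made up of 2.34% with higher and 2.29% with lower treated values. Neither count of members exceeded the background. The fabp4a row, whose RefSeq synonym is the listed fabp11a, was not counted among the 40. It had an unadjusted edgeR p of 0.041 and groups without overlap, treated higher. DESeq2, run on the same counts, called 0 members and 18 of 8723 genes, 0.206%, by its adjusted p, which it gave for 23 of the 40 members. Its unadjusted p was at most 0.05 for 1 member, PLIN2. The median log2 fold change, treated over control, was 0.10 over the 40 members and -0.0045 over all genes tested.

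**Figure D1:**
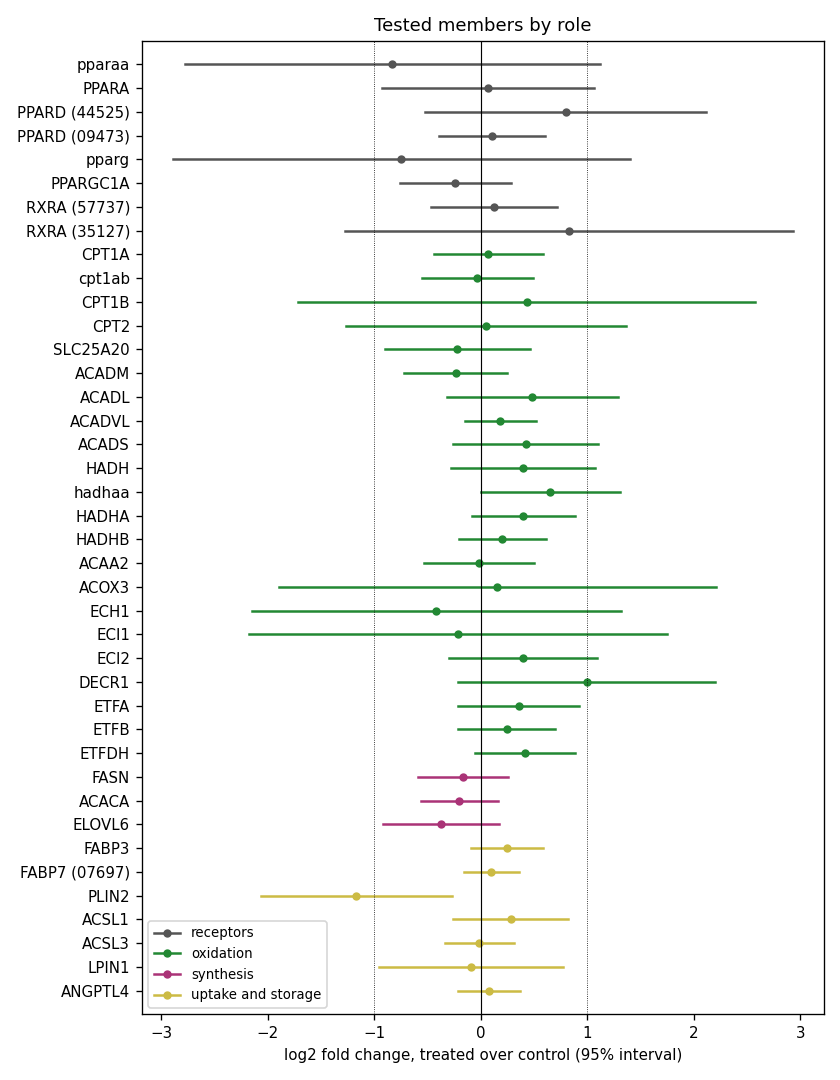
Log2 fold change, treated over control, of the 40 tested members (points) with 95% intervals (lines) from edgeR, coloured by role; digits after a name are the end of its Ensembl gene ID where a name has several rows. PLIN2 is the only one of these 40 whose interval, -2.07 to -0.27, lies wholly away from 0. The fabp4a row, whose RefSeq synonym is the listed fabp11a, is not shown. Its interval ran from 0.020 to 0.89.

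Of the 22 oxidation members, 16 had a log2 fold change above 0, against 49.5% of all genes tested, and their median was 0.22. The beta-oxidation enzymes had 8 of 10 values above 0 with a median of 0.30, the electron transfer genes 3 of 3 with a median of 0.36, the carnitine shuttle 3 of 5 with 0.048, and the enzymes for unsaturated fatty acids 2 of 4 with 0.091. No single oxidation member passed the threshold in edgeR's test, where adjusted p ran from 0.721 to 0.993. Under each alternative scaling, tool or left-out library between 15 and 18 members of the class were above 0, except that a minimum of 5 CPM left fewer members to test and 12 above 0. The median was 0.13 without treated 8, 0.17 without treated 6 and 0.34 without treated 7.

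The mitochondrial trifunctional protein carries the last 3 steps of long-chain beta-oxidation, and its alpha subunit is encoded by rows named hadhaa and HADHA. The hadhaa row (ENSDARG00000057128) stood at 7.33, 10.5, 3.87 and 8.31 CPM, which are counts scaled by TMM to a common library total, in controls 1 to 4 and at 12.8, 13.0, 12.0 and 10.0 CPM in treated libraries 5 to 8. Control 2 lay above treated 8, so that the groups overlapped by that pair alone. The means were 7.51 ± 2.77 and 11.9 ± 1.34 CPM (SD, n = 4 each). Its log2 fold change of 0.65 ± 0.31 (SE) did not pass in edgeR's quasi-likelihood test, with an adjusted p of 0.721 and a 95% interval from -0.0015 to 1.31. This was the smallest p among the oxidation members.

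The HADHA row (ENSDARG00000060594) stood at 26.8, 34.1, 34.2 and 35.8 CPM in controls and at 23.9, 48.7, 40.8 and 57.7 CPM in treated libraries. Treated 5 was the lowest of the 8 libraries, and the other 3 treated libraries lay above every control. The fitted log2 fold change was 0.40 ± 0.23 (SE, edgeR adjusted p = 0.774) and 0.59 without treated 5. HADHB, which encodes the beta subunit of the same complex, stood at 23.3, 20.02, 26.1 and 24.0 CPM in controls and at 28.2, 25.6, 23.1 and 30.6 CPM in treated libraries. The groups overlapped for HADHB, and its log2 fold change was 0.20 ± 0.19 (SE, edgeR adjusted p = 0.869).

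Acyl-CoA dehydrogenases open each round of beta-oxidation and differ in the chain lengths they prefer. ACADVL, the very-long-chain enzyme, stood at 46.3, 40.03, 44.5 and 51.7 CPM in controls and at 43.1, 56.2, 50.1 and 57.7 CPM in treated libraries. Its 95% interval on the log2 scale ran from -0.15 to 0.52, within a 1.5-fold change in either direction. The long-chain ACADL, the short-chain ACADS and HADH, the short-chain hydroxyacyl-CoA dehydrogenase, gave 0.48 ± 0.38, 0.42 ± 0.32 and 0.40 ± 0.32 (log2 fold change ± SE), and ACADL was at 0.23 without treated 5. The medium-chain ACADM and the thiolase ACAA2 had values of -0.24 ± 0.23 and -0.015 ± 0.24 (SE), the only 2 of the 10 beta-oxidation rows below 0. ACOX3, a peroxisomal acyl-CoA oxidase, was at 0 counts in control 4 and treated 7 and at 2.82 to 6.45 CPM elsewhere. The edgeR adjusted p of these 7 rows lay between 0.848 and 0.993.

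The electron transfer flavoprotein takes electrons from the acyl-CoA dehydrogenases, and its dehydrogenase ETFDH hands them to ubiquinone. ETFDH (ENSDARG00000038834) stood at 17.8, 13.1, 16.8 and 15.5 CPM in controls and at 22.2, 16.1, 20.7 and 25.5 CPM in treated libraries. Treated 5, 7 and 8 lay above every control and treated 6 among them. Treated over control, it differed by a log2 fold change of 0.42 ± 0.22 (SE, edgeR adjusted p = 0.761). ETFA, the alpha subunit, stood at 11.5, 12.1, 13.5 and 15.2 CPM in controls and at 11.1, 25.1, 14.4 and 15.7 CPM in treated libraries, with treated 6 far above the rest. ETFB, the beta subunit, stood at 19.1, 28.5, 30.6 and 27.0 CPM in controls and at 27.3, 24.6, 31.2 and 40.7 CPM in treated libraries, with control 1 lowest and treated 8 highest. The log2 fold changes of ETFA and ETFB were 0.36 ± 0.27 and 0.24 ± 0.22 (SE, edgeR adjusted p = 0.844 and 0.862). Single libraries decided much of both values, since ETFA was at 0.078 without treated 6, and ETFB at 0.077 without treated 8 and 0.11 without control 1.

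The carnitine palmitoyltransferases of the CPT1 family, which control the entry of fatty acids into mitochondria, had 3 rows. The cpt1ab row stood at 28.3, 42.1, 56.4 and 53.3 CPM in controls and at 65.7, 39.4, 34.8 and 36.9 CPM in treated libraries. It varied 2.32-fold between the lowest and the highest library, and the spread ran through both groups, with control 1 lowest and treated 5 highest. The CPT1A row stood between 9.75 and 12.3 CPM in all 8 libraries, the narrowest range of any member with no zero, at 1.26-fold. CPT1B, the muscle form in mammals, was at 0 counts in control 1 and treated 7 and at 2.58 to 8.13 CPM in the other 6 libraries. CPT2, which acts on the inner side of the membrane, stood between 2.07 and 5.10 CPM, and the carrier SLC25A20 between 6.92 and 16.9 CPM. The log2 fold changes of the 5 rows ran from -0.22 to 0.43, with edgeR adjusted p from 0.930 to 0.992.

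DECR1, the dienoyl-CoA reductase needed for polyunsaturated fatty acids, stood at 2.31, 2.05, 3.23 and 3.0 CPM in controls and at 2.56, 3.89, 3.30 and 11.1 CPM in treated libraries. Treated 8 alone was high. The log2 fold change of 1.00 ± 0.57 (SE, edgeR adjusted p = 0.774) was 0.31 without treated 8. The isomerases ECH1, ECI1 and ECI2 handle double bonds in the chain and had log2 fold changes of -0.42, -0.22 and 0.40. ECH1 was at 0 counts in treated 7, and ECI1 in control 1 and treated 5. Without treated 7 the log2 fold change of ECH1 was -0.0042, without treated 6 that of ECI2 was 0.094, and without control 4 that of ECI1 was 0.20.

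**Figure D2:**
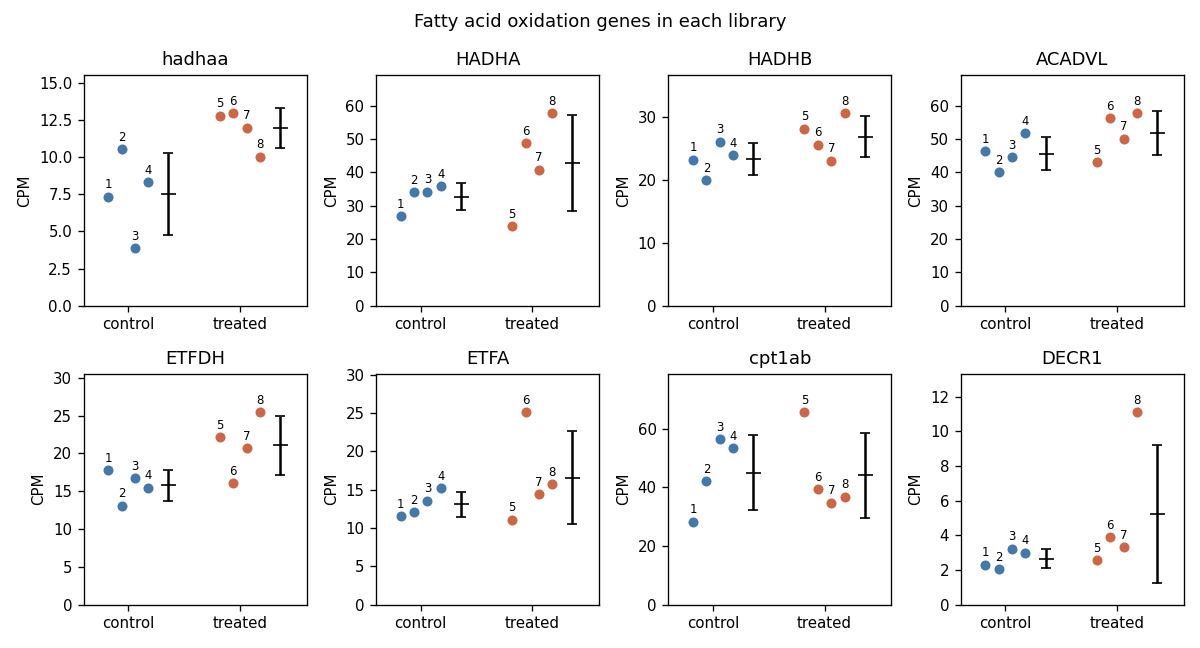
CPM after TMM scaling of 8 oxidation genes in each library (points, numbered by library) with the group mean and SD (black), 4 libraries per group. The groups overlap in all 8 panels. For hadhaa only control 2, at 10.5 CPM, and treated 8, at 10.0 CPM, overlap. Only cpt1ab among the genes shown had a log2 fold change below 0, whereas 6 of the 22 oxidation members did.

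The shares of muscle markers and of oxidation rows ran alike in some libraries and not in others. The 22 oxidation rows together took 0.0277%, 0.0300%, 0.0333% and 0.0359% of counts in controls 1 to 4 and 0.0323%, 0.0368%, 0.0330% and 0.0400% in treated 5 to 8. The 30 muscle rows took 0.179%, 0.867%, 0.704% and 1.65% in controls and 1.38%, 1.72%, 1.03% and 2.21% in treated libraries. Control 1 was lowest and treated 8, treated 6 and control 4 were the 3 highest in both measures. Among the remaining libraries the order differed, as control 3 had their largest oxidation share, 0.0333%, and their smallest muscle share, 0.704%. Of 26 muscle markers tested, 25 had a log2 fold change above 0, with a median of 0.86, and 3 of the 30 rows were at 0 counts. Without control 1 the oxidation median was 0.18 and 15 of 22 members were above 0. Heart markers had a median of -0.50 over 9 tested rows, with values from -1.10 to 1.62. Their summed share was 0.00974% to 0.0368% in controls and 0.0157% to 0.0453% in treated libraries. That share rests largely on the actc1a row, with 3844 counts over the 8 libraries, while the next row, named MYH6, had 971. The part of muscle content in the oxidation values was not tested.

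Fatty acid synthesis is carried out by ACACA, which makes malonyl-CoA, FASN, which builds palmitate from it, ELOVL6, which lengthens the chain, and SCD, which adds a double bond. All 3 tested members had log2 fold changes below 0, against 50.5% of all genes tested, with a median of -0.20, and none passed the threshold. ELOVL6 stood at 26.0, 19.2, 19.7 and 24.7 CPM in controls and at 26.4, 17.4, 11.7 and 14.6 CPM in treated libraries. Treated 5 was the highest of all 8 libraries, and the other 3 treated libraries lay below every control. Treated over control, the log2 fold change was -0.37 ± 0.25 (SE, edgeR adjusted p = 0.821) and -0.62 without treated 5.

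ACACA stood at 45.5, 46.2, 53.5 and 64.2 CPM in controls and at 36.7, 48.7, 52.8 and 43.4 CPM in treated libraries. FASN stood at 49.0, 45.4, 42.3 and 57.0 CPM in controls and at 33.7, 60.1, 32.7 and 45.5 CPM in treated libraries. The groups overlapped for both. Their log2 fold changes were -0.20 ± 0.17 and -0.17 ± 0.20 (SE, edgeR adjusted p = 0.856 and 0.907). SCD was listed with 17 counts in control 1 and 0 in the other 7 libraries and was not tested. Leaving out control 4 gave the class a median of -0.085, and leaving out treated 5 or treated 6 gave -0.12 or -0.38.

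PLIN2, a protein that coats lipid droplets in most tissues, was the member with the smallest p. It stood at 8.80, 6.16, 10.6 and 8.08 CPM in controls 1 to 4 and at 2.13, 4.92, 6.0 and 1.63 CPM in treated 5 to 8. Every treated library lay below every control, though control 2 and treated 7 were close, and they overlapped when counts were scaled to the library total alone. The means were 8.42 ± 1.85 and 3.67 ± 2.12 CPM (SD, n = 4 each). The log2 fold change was -1.17 ± 0.42 (SE) with a 95% interval from -2.07 to -0.27, and it did not pass in edgeR's quasi-likelihood test (adjusted p = 0.597, and 0.504 to 0.849 over the alternatives that gave one). Leaving out single libraries gave values from -1.50 without treated 7 to -0.91 without treated 8. The 8 values rest on 5 to 42 counts each.

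Markers of the yolk syncytial layer and liver, lipid-handling tissues of the embryo, had values below 0 for 9 of 10 tested rows, with a median log2 fold change of -1.0. Their summed share was 0.00997% to 0.0468% in controls and 0.00921% to 0.0149% in treated libraries. Control 3 alone held 0.0468%, while controls 1, 2 and 4, at 0.00997%, 0.0174% and 0.0129%, lay within the range of the treated libraries or, for control 2, just above it. Of the 23 rows, 3 were at 0 counts. PLIN2 was also highest in control 3, and its log2 fold change without control 3 was -1.05. The part of yolk and liver content in the PLIN2 values was not tested.

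**Figure D3:**
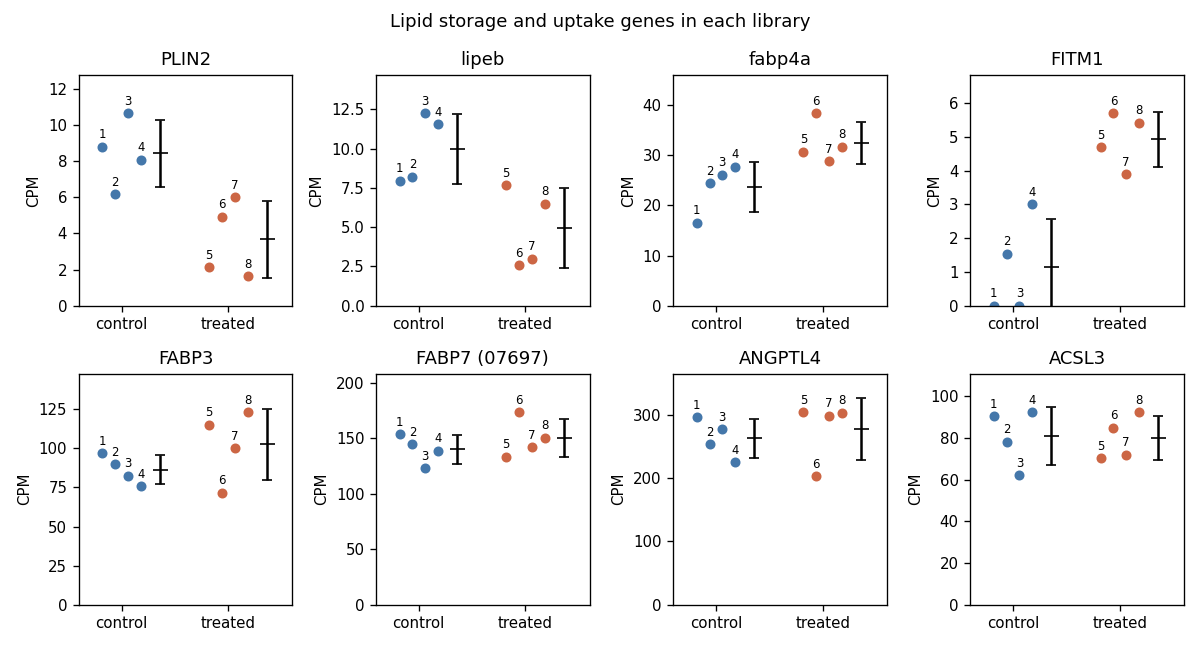
CPM after TMM scaling of 8 storage and uptake genes in each library (points, numbered by library) with the group mean and SD (black), 4 libraries per group; PLIN2, FABP3, FABP7, ANGPTL4 and ACSL3 are members and lipeb, fabp4a and FITM1 belong to the further storage list. In the first 4 panels the groups do not overlap, and in the last 4 they do. The first 4 are among the genes named because their unadjusted edgeR p was 0.05 or less. Groups did not overlap in 4.62% of all genes tested. The FITM1 values rest on 0 to 22 counts per library, with 0 counts in controls 1 and 3.

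The other tested uptake and storage members had intervals that spanned 0. Most were clearly narrower than that of PLIN2, but that of LPIN1 ran from -0.95 to 0.77. FABP3, the fatty acid binding protein of heart and muscle in mammals, stood at 97.0, 90.1, 82.6 and 75.7 CPM in controls and at 115.2, 71.8, 100.1 and 123.3 CPM in treated libraries. Treated 6 was the lowest of all 8 and the other 3 treated libraries lay above every control. Treated over control, the log2 fold change was 0.25 ± 0.16 (SE, edgeR adjusted p = 0.813) and 0.38 without treated 6.

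FABP7, the brain fatty acid binding protein, had 2 rows, which the files do not assign to a paralog. The first (ENSDARG00000007697) stood at 153.8, 144.7, 122.9 and 139.0 CPM in controls and at 133.5, 173.8, 142.4 and 150.7 CPM in treated libraries, with a log2 fold change of 0.10 ± 0.12 (SE, edgeR adjusted p = 0.907). The second (ENSDARG00000034650) had at most 9 counts in any library and was not tested.

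ANGPTL4, a secreted inhibitor of lipoprotein lipase and a PPAR target in mammals, held more counts than any other member. It stood at 296.3, 253.8, 277.4 and 225.1 CPM in controls and at 304.6, 203.4, 299.2 and 303.8 CPM in treated libraries. Treated 6 was lowest and the other 3 treated libraries lay above every control. The log2 fold change of 0.077 ± 0.14 (SE, edgeR adjusted p = 0.944) had a 95% interval from -0.21 to 0.37, and was 0.20 without treated 6.

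The acyl-CoA synthetases activate fatty acids for use. ACSL1 stood at 17.0, 15.4, 15.5 and 24.9 CPM in controls and at 13.7, 27.7, 20.7 and 25.7 CPM in treated libraries, with a log2 fold change of 0.28 ± 0.25 (SE, edgeR adjusted p = 0.863). ACSL3, the form found on growing lipid droplets, stood between 62.2 and 92.4 CPM over all libraries, with a log2 fold change of -0.016 ± 0.15 (SE). LPIN1, a phosphatidate phosphatase on the way to triglycerides, ranged from 5.13 to 19.2 CPM, with a log2 fold change of -0.091 ± 0.40 (SE). The groups overlapped for all 3. CPM is not a level per length, so no order of transcript abundance between genes is drawn from these values.

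The receptors and their partners were thinly covered. PPARGC1A, a coactivator of mitochondrial genes, stood at 16.8, 18.7, 26.4 and 21.2 CPM in controls and at 17.1, 12.2, 17.4 and 23.6 CPM in treated libraries. The groups overlapped, and its log2 fold change was -0.24 ± 0.24 (SE, edgeR adjusted p = 0.884). PPARD, the widely expressed delta receptor, had 2 rows, which the files do not assign to pparda or ppardb. The first (ENSDARG00000009473) stood at 15.3, 15.9, 13.2 and 15.5 CPM in controls and at 12.4, 14.2, 21.6 and 16.0 CPM in treated libraries, with a log2 fold change of 0.10 ± 0.23 (SE, edgeR adjusted p = 0.958) that was -0.076 without treated 7. The second (ENSDARG00000044525) stood at 5.45, 3.34, 0 and 4.39 CPM in controls and at 5.97, 4.40, 5.70 and 7.59 CPM in treated libraries. Its log2 fold change was 0.80 ± 0.62 (SE, edgeR adjusted p = 0.850), and the 0 of control 3 set it apart from the other controls.

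The alpha receptor, the main PPAR of oxidizing tissues in mammals, had a row named pparaa and a row named PPARA. The files do not say which paralog the PPARA row is. The pparaa row stood at 3.77, 3.08, 2.58 and 5.54 CPM in controls and at 0, 6.22, 1.8 and 0 CPM in treated libraries. Treated 5 and 8 were listed with 0 counts while treated 6 was the highest of the 8, and the log2 fold change of -0.83 ± 0.91 (SE, edgeR adjusted p = 0.895) ran from -0.42 to -2.52 as single libraries were left out, the latter without treated 6. The PPARA row stood at 3.56, 4.36, 4.52 and 5.77 CPM in controls and at 2.13, 3.11, 5.4 and 8.13 CPM in treated libraries. The treated libraries spanned the controls on both sides, with a log2 fold change of 0.065 ± 0.47 (SE, edgeR adjusted p = 0.986).

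The gamma receptor pparg, which drives fat cell formation in mammals, stood at 3.56, 2.31, 0 and 5.08 CPM in controls and at 0.853, 0, 3.0 and 2.71 CPM in treated libraries. RXRA, the partner receptor, had 2 rows not assigned to rxraa or rxrab. The first (ENSDARG00000057737) stood at 14.0, 9.24, 8.71 and 13.4 CPM in controls and at 17.5, 11.1, 12.0 and 9.76 CPM in treated libraries. The second (ENSDARG00000035127) stood at 2.72, 0, 0 and 3.46 CPM in controls and at 1.28, 3.37, 1.8 and 4.88 CPM in treated libraries. The groups overlapped in pparg and both RXRA rows, and the edgeR adjusted p lay between 0.907 and 0.957. The receptor class had a median log2 fold change of 0.084, which was -0.12 without treated 8 and -0.042 without treated 7.

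**Figure D4:**
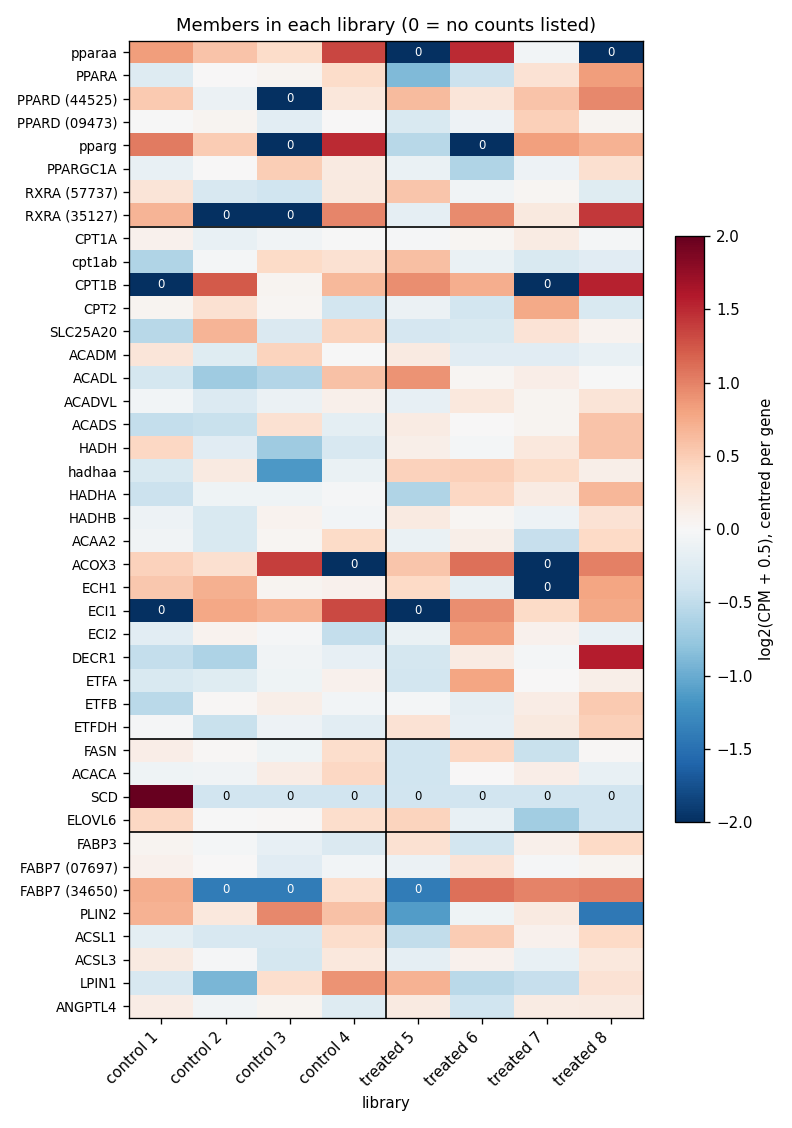
Log2(CPM + 0.5) of the 42 members in each library, centred per gene (red above and blue below the gene's mean), with receptors, oxidation, synthesis and storage separated by lines; a 0 marks a library with no counts. Of the 42 rows, 10 have at least 1 library at 0.

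The zeros among the rarer members were more frequent than counting alone gives. Of 42 members 10 had at least 1 library at 0 counts, and 8 of these averaged at least 5 counts per library. Over all rows of the table with a mean of 10 to 20 counts, 5.06% of values were 0 and 0.523% were 1 or 2, where Poisson counting at the same means and depths gives 0.00322% zeros. Below such counts a 0 is therefore not read as absence of the transcript, and its origin was not tested.

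The depth allowed limits to be set for the better-covered members. The 95% interval lay within a 2-fold change in either direction for 23 of the 40 tested members, and within a 1.5-fold change for 7. Over all 14249 genes tested these counts were 8721 and 3661, so the members were not better bounded than the rest. By class, 11 of 22 oxidation, 3 of 3 synthesis, 6 of 7 uptake and storage and 3 of 8 receptor members lay within a 2-fold change.

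Further genes of these pathways, from 6 lists, gave 0 calls at an adjusted p of at most 0.05. Over lists, the median log2 fold change was 0.10 for other mitochondrial oxidation genes (25 tested, 15 above 0), 0.076 for peroxisomal oxidation (16 tested, 8 above 0), -0.050 for further synthesis genes (21 tested, 10 above 0), -0.11 for further storage and lipolysis genes (27 tested, 13 above 0), -0.029 for further receptors and coregulators (32 tested, 13 above 0) and -0.15 for genes often used as PPAR target readouts (18 tested, 6 above 0). At an unadjusted p of at most 0.05 the further storage list held 4 of 27 genes, 3 of them higher and 1 lower in treated libraries. Over all genes tested the shares were 3.63% higher and 3.3% lower. The lists were chosen with earlier results of these data known, so no excess of storage genes is read from these counts. The further synthesis list had 1 lower of 21 and the receptor and coregulator list 1 lower of 32, and the other 3 lists had 0.

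Among the storage genes, lipeb, a zebrafish copy of hormone-sensitive lipase, which frees fatty acids from stored lipid, stood at 7.96, 8.21, 12.3 and 11.5 CPM in controls and at 7.68, 2.59, 3.0 and 6.50 CPM in treated libraries. All treated libraries lay below all controls, with treated 5 close to control 1. The fitted log2 fold change was -1.04 ± 0.38 (SE, edgeR adjusted p = 0.602). FITM1, a lipid storage gene of skeletal muscle in mammals, was at 0, 1.54, 0 and 3.0 CPM in controls and at 4.69, 5.70, 3.90 and 5.42 CPM in treated libraries, without overlap. These values rest on counts of 0, 6, 0 and 13 in controls and 11, 22, 13 and 20 in treated libraries. A 0 at such counts is not read as absence of the transcript, as stated above. Treated over control, the log2 fold change of FITM1 was 2.06 ± 0.88 (SE, edgeR adjusted p = 0.670). The muscle share given above was 0.179% to 1.65% in controls and 1.03% to 2.21% in treated libraries. The part of muscle content in the FITM1 values was not tested.

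The fabp4a row, whose RefSeq synonym is the fabp11a of the member list, encodes a fatty acid binding protein and stood at 16.6, 24.4, 26.1 and 27.7 CPM in controls and at 30.7, 38.3, 28.8 and 31.7 CPM in treated libraries. All treated libraries lay above all controls, with control 4 and treated 7 close. The fitted log2 fold change was 0.46 ± 0.21 (SE, edgeR adjusted p = 0.704). Endothelial markers, 12 of 13 above 0 and none of 14 rows at 0 counts, took 0.0107% to 0.0164% of counts in controls and 0.0166% to 0.0275% in treated libraries. Their part in the fabp4a values was not tested. The synthetase acsl2 stood at 43.6, 57.2, 45.5 and 48.0 CPM in controls and at 84.9, 38.1, 92.6 and 66.4 CPM in treated libraries, with treated 6 the lowest of all and the other 3 above every control. The fitted log2 fold change was 0.53 ± 0.23 (SE, edgeR adjusted p = 0.670).

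Outside storage, the nuclear receptor coactivator NCOA3 stood at 139.8, 136.8, 134.5 and 126.3 CPM in controls and at 113.5, 88.6, 112.7 and 110.3 CPM in treated libraries, without overlap. Its log2 fold change was -0.34 ± 0.12 (SE, edgeR adjusted p = 0.581). The sterol-regulated transcription factor srebf2 had a log2 fold change of -0.26 ± 0.12 (SE, edgeR adjusted p = 0.714), with overlapping groups. IVD, an acyl-CoA dehydrogenase of leucine breakdown, was the 1 gene without overlap among 25 tested in the mitochondrial list, against 4.62% of all genes tested. It stood at 11.1 to 16.4 CPM in controls and at 9.21 to 10.9 CPM in treated libraries (log2 fold change -0.44 ± 0.25 SE, edgeR adjusted p = 0.774), and was named after its values were seen. PDK4, the kinase that turns pyruvate oxidation down and responds to PPARs in mammals, was also named after its values were seen. Its mean was 9.36 ± 3.82 CPM over controls against 5.09 ± 3.60 CPM over treated libraries (SD, n = 4 each), the latter with treated 6 at 0 counts. Its log2 fold change of -0.90 ± 0.69 (SE) had a 95% interval from -2.42 to 0.62. In its list of PPAR readouts the log2 fold changes ran from -1.49 to 0.41, so PDK4 was not the lowest. The lowest edgeR adjusted p in that list was 0.764, and the groups of every tested gene overlapped. Of the 18 genes tested there 12 were below 0 and 6 above, among the latter CAT at 0.41 and both LPL rows at 0.34.

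**Figure D5:**
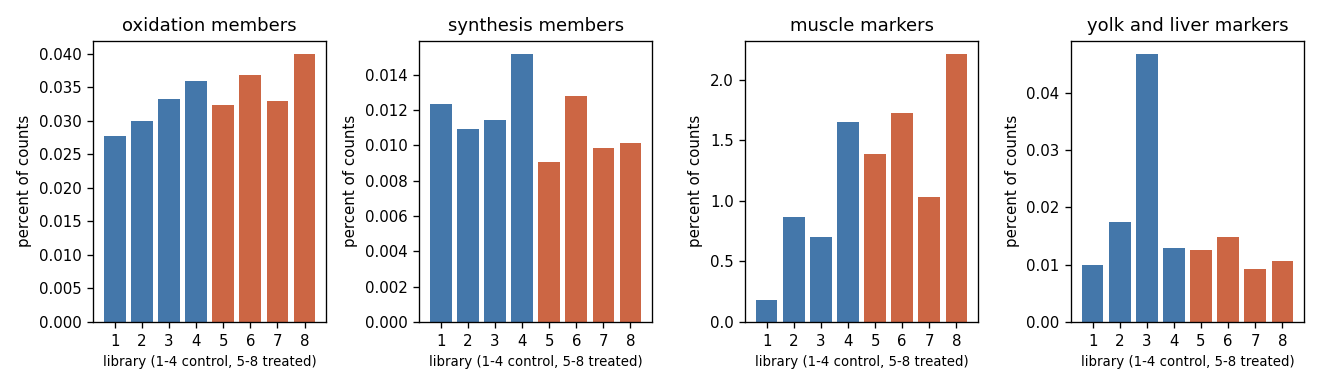
Percent of all counts in each library (bars, controls blue and treated red) taken by the oxidation members, the synthesis members, the muscle markers and the yolk and liver markers. Oxidation members run from 0.0277% in control 1 to 0.0400% in treated 8, the same libraries that hold the lowest and highest muscle share, 0.179% and 2.21%. Between these ends the order of the libraries is not the same for both shares.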

How the data were processed

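Raw gene counts for all 8 libraries come from 1 deposited table. Per the labels' protocols, the libraries were built with a stranded kit for small amounts of total RNA and read as pairs of 100 bp. The submitters' processing notes name, without a role, the build GRCz11 and the tools StringTie 1.3.3b, HISAT2 2.1.0, DESeq2 1.22.1, Trim Galore 0.5.0 and CASAVA 1.8.2. The sources used here give no annotation release or strand setting, which leaves the values of paralogs and of genes that overlap or lie antisense uncertain. No coordinates or sequences are given.

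Of 32020 rows, 28975 matched a symbol in the supplied name table, and 24.7% of counts lay in unnamed rows, which stayed in the test. 0 columns were left out. In edgeR 4.0.16 under R 4.3.3, filterByExpr left 14249 genes, which after TMM scaling went into the quasi-likelihood F-test with robust dispersion, no covariate and Benjamini-Hochberg adjustment over all of them. The biological coefficient of variation was 0.265. Standard errors are the fold change over the square root of F. CPM uses the TMM-scaled totals. Library pairs differed beyond sampling noise, with chi-square over degrees of freedom of 6.69 to 20.9.

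Members and lists were chosen with earlier results of these data known. Values per library are given for all receptors, the 3 members of smallest p in each other class, members without overlap or whose unadjusted p was 0.05 or less, and the members with most and fewest counts. HADHA, HADHB, ACADVL, ETFA, ETFB and cpt1ab, and ranges for the remaining members, were added after values were seen. Among these named rows only cpt1ab had a log2 fold change below 0, at -0.034. Oxidation rows further below 0, such as ACADM at -0.24 and SLC25A20 at -0.22, were not given library by library. The pathway lists contribute genes whose unadjusted p was 0.05 or less.

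Alternatives were DESeq2 size factors, total-count scaling, no filter beyond 10 counts, a minimum of 5 CPM, DESeq2 1.42.0, limma-voom (limma 3.58.1), non-robust dispersion, 1 surrogate variable (sva 3.50.0), unnamed rows left out, and each library left out. The edgeR step was tested on simulated counts of 14249 genes, with 50 genes set to each size. It found 1 at 1.5-fold, 19 at 2-fold, 37 at 3-fold and 40 at 5-fold, besides 5 of 14049 unchanged genes. The draws were negative binomial, with no added term for the excess zeros described above, and were filtered at 10 counts only. The rates in the real counts may therefore differ. Intervals of fold changes come from the edgeR fit and include the spread between libraries.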

Additional observations from a re-analysis of the deposited data

Results flagged for a closer look

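In 12 of 132 groups of 4 libraries examined, 1 library lay far from the other 3. Its gap took more of the group's range than Dixon's critical value allows. That value flags about 1 in 20 groups of independent normal values by chance. Rows with zeros, and shares that contain flagged rows, are not such values, so no excess of flagged groups is read from the count. Among treated libraries, treated 5 was high for cpt1ab at 65.7 CPM, for ACADL at 13.7 CPM and for the summed carnitine shuttle rows at 0.00863% of counts. Treated 5 was also low for the second FABP7 row at 0 CPM and for the endothelial markers at 0.0166% of counts. Treated 6 was low for ANGPTL4 at 203.4 CPM and for NCOA3 at 88.6 CPM. Treated 7 was high for CPT2 at 5.10 CPM, and treated 8 for DECR1 at 11.1 CPM and for the heart markers at 0.0453% of counts. Among controls, control 1 was high for SCD at 3.56 CPM and control 4 for ACSL1 at 24.9 CPM.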

How the results depend on the processing

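No member reached an adjusted p of at most 0.05 under any alternative run that gave one, the lowest being 0.504. DESeq2 gave no adjusted p for PLIN2, and a minimum of 5 CPM left 29 members to test. Of 40 tested members 28 kept the sign of their log2 fold change under every alternative that gave a value. The number of all genes called, 0 with edgeR, was 18 with DESeq2, 3 without the low-count filter, 2 with a minimum of 5 CPM, 2 with 1 surrogate variable and 0 to 1 as single libraries were left out. Members at an unadjusted p of at most 0.05, 1 in edgeR, numbered 2 with limma-voom, 2 with non-robust dispersion, 3 with 1 surrogate variable and 1 to 4 with single libraries left out, with 4 of 40 without treated 5 and without treated 6. The shares of all genes tested under these settings were 8.06%, 7.16%, 7.64%, 7.5% and 7.36%, in that order for limma-voom, non-robust dispersion, the surrogate variable, treated 5 and treated 6. Members without overlap, 1 in the main test, numbered 0 with scaling to total counts and 1 to 6 with single libraries left out, the 6 of 40 without treated 6. With 3 libraries against 4, non-overlap was also commoner over all genes tested, at 8.91% without treated 6 and 7.36% to 8.66% without each of the others. The oxidation median was 0.36 with limma-voom. Signs turned with limma-voom for CPT2 (-0.027) and ECI1 (0.88), and with 1 surrogate variable for the first RXRA row (-0.020), ACAA2 (0.021) and ACSL3 (0.022). Leaving out single libraries turned the sign of 12 members, whose values ran from -0.34 to 0.28 for PPARA, -0.076 to 0.20 for the first PPARD row, -0.060 to 0.24 for the first RXRA row, -0.28 to 0.087 for cpt1ab, -0.063 to 0.97 for CPT1B, -0.35 to 0.19 for CPT2, -0.41 to 0.0074 for SLC25A20, -0.18 to 0.13 for ACAA2, -0.27 to 0.76 for ACOX3, -0.65 to 0.20 for ECI1, -0.12 to 0.057 for ACSL3 and -0.36 to 0.31 for LPIN1. The cause was not tested. The counts of oxidation members above 0 and the values of pathway-list genes under the alternatives were added after seeing the data. No paired analysis was possible because controls are numbered 1 to 4 and treated libraries 5 to 8 and share no number.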
